A study of Mus musculus with 10 samples.

Results

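The comparison set mouse embryonic stem (ES) cells with 3 copies of chromosome 8 (Ts8) against ES cells with 3 copies of chromosome 15 (Ts15). Its members were the 2 Ts8 arrays and the 2 Ts15 arrays, chosen by their labels, 4 of the 10 arrays of the series. Ts8 cells were taken at passages 10 and 13 and Ts15 cells at passages 11 and 14, and the labels give 129 S7/SvEvBrd as the strain of both lines. Each line is a single cell line, and neither its sex nor its parent line is given in the labels. The diploid male line AB1 (WT, passages 18 and 20) is given beside the 2 lines for comparison, and lines trisomic for chromosome 6 or 11 complete the series. All cells were grown on irradiated SNL76/7 fibroblasts, a feeder layer that keeps ES cells undifferentiated, which were depleted by letting them settle before RNA was taken.

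A trisomy adds 1 copy of every gene of a chromosome, and RNA of those genes tends to follow the copy number. Trisomies of chromosomes 8 and 11 are common gains in cultured mouse ES cells, and a gain can also move genes of other chromosomes. ES cells correspond to the inner cell mass, whose cells become epiblast or primitive endoderm, and a culture can hold cells that have begun to differentiate. A bulk RNA sample cannot tell fewer cells of a type from less RNA per cell.

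Expression was read on 1-colour arrays that carry mRNA probes and probes of long intergenic noncoding RNAs, or lincRNAs. A level below is the log2 of a probe's processed signal over the 75th percentile of its array, so that 0 is the signal of that percentile, and a difference is Ts8 minus Ts15. Well above background were 80.2% and 74.9% of the spots on the Ts8 arrays, against 72.3% and 73.3% on the Ts15 arrays. The 10 ES cell markers, Pou5f1, Sox2, Nanog, Esrrb, Klf4, Zfp42, Sall4, Lin28a, Utf1 and Fbxo15, were well above background on every array, with levels of 2.35 to 4.91 on the Ts8 arrays and 2.29 to 5.18 on the Ts15 arrays. None of the 10 was called between the lines, 1 had an unadjusted p under 0.05 in limma, and the differences were -0.27 to 0.26. Both Ts15 arrays were on a second slide, and the Ts8 arrays shared the first slide with WT. For any single gene, on chromosomes 8 and 15 as on the others, the line and the slide cannot be told apart. The mean shift of a chromosome is set against other chromosomes of the same array, which cancels a factor common to all probes of a slide. The replicates are labelled as biological replicates, and 2 arrays per line limit the precision of every value. A gene was called at an adjusted p under 0.05 in limma, fitted over all 28188 genes and all 10 arrays.

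Chromosome 8 stood higher in Ts8 and chromosome 15 stood lower in Ts8, each by a like amount and on every array. Set against the 15 autosomes with no trisomic line in the series, and with the WT mean as 0, the genes of chromosome 8 were shifted by 0.252 and 0.260 on the Ts8 arrays and by 0.006 and -0.002 on the Ts15 arrays. The genes of chromosome 15 were shifted by -0.031 and -0.031 on the Ts8 arrays and by 0.227 and 0.210 on the Ts15 arrays. Each extra chromosome thus stood out on both arrays of its own line, and the groups did not overlap. The difference of the chromosome means was 0.254 ± 0.0055 (SE, n = 2 arrays each) for chromosome 8, which is 1.19-fold, and -0.249 ± 0.0086 for chromosome 15, a 1.19-fold lower mean. On the log2 scale 3 copies over 2 is 0.58, and the 2 differences were 43.3% and -42.6% of it. The 17 other autosomes differed by -0.076 to 0.070. An exact permutation test of 2 arrays against 2 gave p = 0.333 for both chromosomes (two-sided), which is the smallest p that this design allows.

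**Figure D1:**
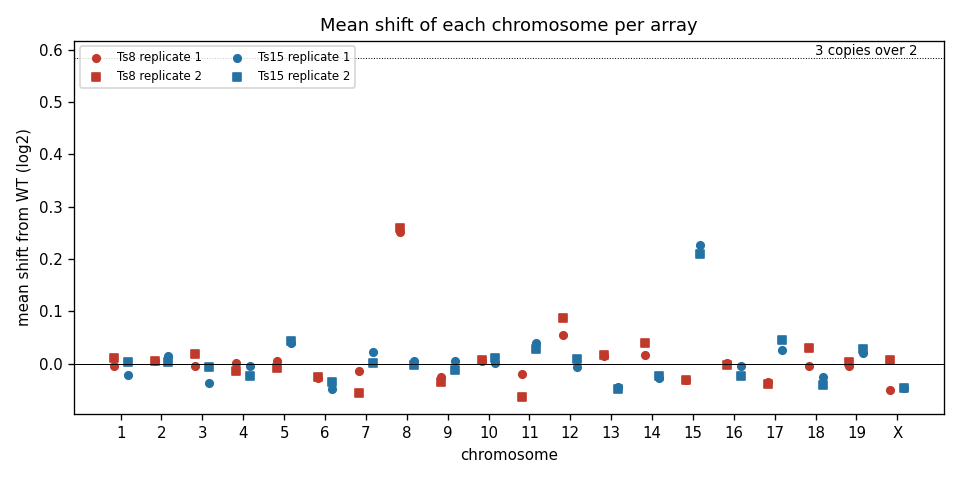
Mean shift of the genes of each chromosome from the WT mean, against the 15 autosomes with no trisomic line (log2), with 1 point per array (Ts8 left of Ts15; circles replicate 1, squares replicate 2). Chromosome 8 lies at 0.252 and 0.260 on the Ts8 arrays and chromosome 15 at 0.227 and 0.210 on the Ts15 arrays, below the dotted line for 3 copies over 2.

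The extra chromosomes were shifted over most of their length and at all signal levels. Against genes of like signal on the 15 reference autosomes, all 13 windows of 10 Mb on chromosome 8 with at least 20 genes had a mean above 0, between 0.13 and 0.40. On chromosome 15, 10 of 11 windows had a mean below 0, the lowest at -0.34 between 70 and 80 Mb. The window from 40 to 50 Mb, with 23 genes, had a mean of 0.16 and a median of 0.01. In the dim, middle and bright tertile of all genes, the genes of chromosome 8 differed by 0.219 ± 0.0241, 0.355 ± 0.0192 and 0.236 ± 0.0044 (SE over arrays). For chromosome 15 the same 3 values were -0.199 ± 0.0107, -0.287 ± 0.0147 and -0.235 ± 0.0127. The 271 lincRNAs of chromosome 8 differed by 0.400 ± 0.0567, against 0.240 ± 0.0071 for its other genes. The 178 lincRNAs of chromosome 15 differed by 0.003 ± 0.0546, against -0.287 ± 0.0058 for the other genes of chromosome 15. The difference between lincRNAs and other genes was not tested.

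**Figure D2:**
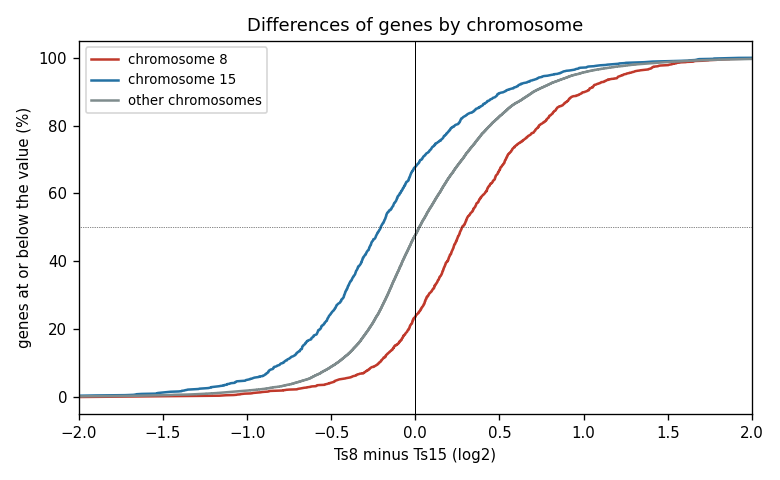
Share of genes (%) at or below a given difference between Ts8 and Ts15 (log2), for the 1496 genes of chromosome 8, the 1105 of chromosome 15 and the 25587 others. Over most of the range the curve of chromosome 8 lies to the right of that of the other chromosomes and the curve of chromosome 15 to the left.

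Of the 1496 genes of chromosome 8, 76.4% had a difference above 0. Of these 1496 genes, 413 (27.6%) were called higher in Ts8 and 27 (1.80%) lower. Without 1 array there were 133 to 312 higher calls, with 154 without Ts8 replicate 2, 185 without Ts15 replicate 1 and 133 without Ts15 replicate 2. Outside chromosomes 8 and 15, 10.9% of genes were called higher and 5.15% lower. Of 57 tested genes listed for a known role on chromosome 8, 16 were called higher and 2 lower, with a median difference of 0.28. There were 3 such higher calls without either Ts15 array, 4 without Ts8 replicate 2 and 10 without Ts8 replicate 1.

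Among the listed genes of chromosome 8, those called higher included cadherins and transcription factors. Cdh3, which encodes P-cadherin, a cell-cell adhesion protein, was at 0.96 and 0.91 in Ts8, against -0.12 and -0.15 in Ts15 (difference 1.08 ± 0.15 SE, adjusted p = 0.0058; WT -0.30 and -0.19). Its neighbour in function Cdh1, E-cadherin, was at 2.87 and 2.92 in Ts8, against 2.46 and 2.45 in Ts15 (difference 0.44 ± 0.12, adjusted p = 0.045). For Cdh1 the adjusted p in limma was 0.026 after quantile normalization and 0.089 with only the 4 arrays of the lines. Both cadherins were thus higher on both Ts8 arrays, and Cdh3 differed by more than a 1.5-fold dose. Irf8, an interferon regulatory transcription factor, differed by 1.07 and Rbl2, a protein of the retinoblastoma family that restrains the cell cycle, by 1.06. Ikbkb, a kinase that activates NF-kB, differed by 1.03 and Sall1, a zinc finger repressor, by 0.88. Also called higher were Wrn, the Werner syndrome helicase (0.54, adjusted p = 0.058 after quantile normalization), Brd7, a chromatin remodelling subunit (0.53), and Hmox1, heme oxygenase (0.58), and Ctcf, the chromatin insulator protein, differed by 0.43. Klf2, a transcription factor of naive pluripotency on chromosome 8, was at 3.17 and 2.94 in Ts8, against 3.32 and 3.16 in Ts15 (difference -0.18, adjusted p = 0.45).

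The 6 highest named entries of chromosome 8, chosen by the size of their difference, differed by more than 1.5-fold between the lines. Tenm3 fills 2 of these places, under its present and its older name. Zmat4, a zinc finger gene (probe at chr8:25173049-25173108, mm9), was at -1.43 and -0.61 in Ts8, against -2.86 and -3.47 in Ts15, a 4.42-fold difference. Tenm3, a teneurin that guides neuronal connections, was at -0.34 and -0.02 in Ts8, against -2.17 and -2.13 in Ts15, 3.91-fold. WT lay between the lines for Tenm3, at a mean of -1.07, and Ts8 differed from WT by 0.88 and Ts15 by -1.08. A second probe, under Odz3, an older name of Tenm3 in the files, gave 3.06-fold. Dusp26, a phosphatase, differed 3.46-fold and Lpcat2, an acyltransferase of phospholipids, 3.05-fold, with Lpcat2 well above background on 1 of the 2 Ts15 arrays. Terb1, which tethers telomeres to the nuclear envelope in meiosis, was at -3.54 and -2.11 in Ts8, against -4.60 and -5.03 in Ts15 (3.98-fold, adjusted p = 0.025, and 0.053 after quantile normalization).

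A few genes of chromosome 8 went against its dose. Col4a1 and Col4a2, which encode the chains of type IV collagen in basement membranes, lie side by side on chromosome 8 (probes at chr8:11199009-11199068 and chr8:11448840-11448899, mm9). Col4a2 was at 2.47 and 2.59 in Ts8, against 3.60 and 3.42 in Ts15, and Col4a1 at 2.75 and 2.82 in Ts8, against 3.66 and 3.48 in Ts15. Both were lower on both Ts8 arrays in spite of the extra copy, by 0.98 ± 0.11 and 0.79 ± 0.12 on the log2 scale, and WT lay at the Ts8 level (means 2.63 and 2.81). They were the 2 genes called lower among the listed genes of chromosome 8. By size the lowest were Mt4, a metallothionein of stratified epithelia (4.09-fold lower), and the alpha-defensin genes Defa29 (3.72-fold) and Defa42 (3.45-fold). Alpha-defensin genes are near-identical copies of each other, so their probes may share signal.

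Of the 1105 genes of chromosome 15, 225 (20.4%) were called lower in Ts8 and 74 (6.70%) higher. Outside chromosomes 8 and 15, 5.15% of genes were called lower and 10.9% higher. Without 1 array there were 58 to 198 lower calls, with 60 without Ts8 replicate 2, 58 without Ts15 replicate 1 and 73 without Ts15 replicate 2. The 74 higher calls were 37 after quantile normalization and 32 after cyclic loess, and 55 of them were in the dim tertile of genes. Among 68 tested genes listed for a known role on chromosome 15, 25 were called lower and 1 higher, with a median difference of -0.43. Those 25 were 4 without Ts15 replicate 1, 10 without Ts15 replicate 2 and 7 without Ts8 replicate 2. Myc, a growth transcription factor (probe at chr15:61821417-61821476, mm9), was at 1.90 and 1.35 in Ts8, against 2.85 and 2.79 in Ts15. The Ts8 values lay below both Ts15 values and WT lay between, at 2.00 and 2.19. The difference was -1.20 ± 0.18 (adjusted p = 0.0064), 2.29-fold, and Ts15 stood 0.72 above WT while Ts8 stood 0.47 below it. Of the 24 tested genes of the Myc network, Myc and Mxd4 (-0.62) were called lower and Mga higher (0.74). The median of the list was -0.07. Of all genes tested 5.57% were called lower and 11.6% higher.

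Krt8 and Krt18 encode the paired keratins of simple epithelia and lie close together on chromosome 15 (probes at chr15:101827138-101827197 and chr15:101862341-101862400, mm9). Krt8 was at 1.29 and 1.13 in Ts8, against 2.85 and 2.64 in Ts15 (difference -1.54 ± 0.24, adjusted p = 0.0074). Krt18 was at 1.98 and 1.88 in Ts8, against 3.17 and 2.97 in Ts15 (difference -1.14 ± 0.20, adjusted p = 0.011). Both keratins were lower in Ts8 by more than 0.58, and both Ts8 arrays lay below both WT arrays (WT means 2.12 and 2.61). Grhl2, a transcription factor of epithelia, was at 0.56 and 0.19 in Ts8, against 1.84 and 1.96 in Ts15. Atf4, the transcription factor of the amino acid response, was at 3.1 and 3.07 in Ts8, against 3.91 and 3.57 in Ts15 (difference -0.66 ± 0.13, adjusted p = 0.017). Racgap1, which acts in cytokinesis (-0.58), Ndrg1, a stress-responsive gene (-0.76), Recql4, a DNA helicase (-0.62), and Rarg, a retinoic acid receptor (-0.61, adjusted p = 0.051 after quantile normalization), were also called lower.

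By size the lowest named genes of chromosome 15 were Mb, the oxygen store myoglobin (6.35-fold lower in Ts8), Lypd2 (5.17-fold), the signalling ligand Wnt7b (4.03-fold), the cadherin Cdh6 (3.73-fold), Rapgef3, an exchange factor that responds to cyclic AMP (3.31-fold), and Efcab6 (3.20-fold). Mb was at -5.21 and -5.56 in Ts8, against -2.79 and -2.65 in Ts15. Going the other way, Wnt10b was at -4.01 and -4.70 in Ts8, against -5.91 and -6.35 in Ts15, and Csmd3 and Npr3 were 3.07-fold and 2.66-fold higher (adjusted p = 0.061 for Npr3 after quantile normalization). Wnt10b and Csmd3 were well above background on 1 of the 2 Ts15 arrays. Trps1, a zinc finger repressor, was at 1.22 and 1.70 in Ts8, against 0.69 and 0.37 in Ts15 (difference 0.93, adjusted p = 0.021). Trps1 was thus lower in the line with its extra copy. Lifr, the receptor of the ES cell cytokine LIF, lies on chromosome 15 too, and was at 2.04 and 2.39 in Ts8, against 2.05 and 1.91 in Ts15 (difference 0.24, adjusted p = 0.31).

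Over all chromosomes, 4843 of 28188 genes were called (17.2%), 3273 higher in Ts8 (11.6%) and 1570 lower (5.57%), and 1458 differed at least 2-fold. Leaving out 1 array gave 1417 to 4595 calls, with 1417 without Ts15 replicate 2, 1420 without Ts8 replicate 2 and 1844 without Ts15 replicate 1. The share of higher calls depended on how the arrays were scaled. It was 67.6% with the 75th percentile, 56.6% after quantile normalization (2045 higher, 1569 lower) and 51.2% after cyclic loess (1941 higher, 1853 lower). In the dimmest quintile of genes outside chromosomes 8 and 15 the median difference was 0.37, in the brightest -0.13, and 1087 of the dimmest quintile were called higher against 137 lower. After cyclic loess those counts were 469 and 353, with a median of -0.01. The dimmest quintile stood at a median of 0.09 above WT in Ts8, which shared the slide with WT, and at -0.27 in Ts15. Of 4146 lincRNAs, 802 were called higher and 88 lower, with a median difference of 0.24.

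**Figure D3:**
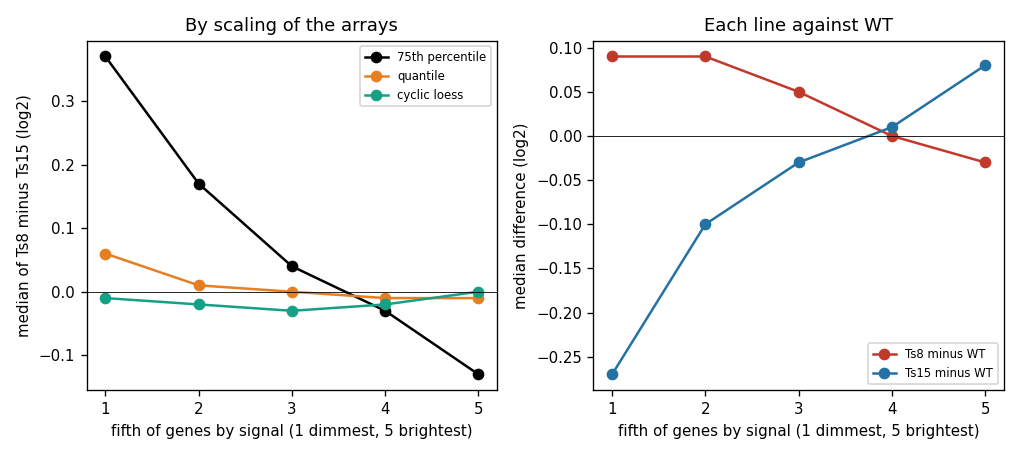
Median difference (log2) of genes outside chromosomes 8 and 15 in quintiles of signal, for 3 scalings of the arrays (left) and for each line against WT with the 75th percentile (right). With the 75th percentile the median runs between 0.37 in the dimmest quintile and -0.13 in the brightest, and after cyclic loess it stays between -0.03 and 0.00.

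The Y-linked genes Ddx3y and Eif2s3y had the largest differences of all named genes. Ddx3y, an RNA helicase, was at -5.10 and -4.50 in Ts8, against -0.72 and -0.86 in Ts15, which is 16.2-fold lower (adjusted p = 0.00044). Eif2s3y, a translation initiation factor, was at -3.08 and -2.99 in Ts8, against 0.85 and 0.77 in Ts15, 14.4-fold lower (adjusted p = 0.00043). Against the male WT cells Ts15 differed by -0.10 and 0.04 for these 2 genes, and Ts8 by -4.11 and -3.81. Uty, a histone demethylase relative, was not well above background on either Ts8 array and was so on 1 of the 2 Ts15 arrays, at -5.87 and -5.74 in Ts15, and was at least 1.67-fold lower in Ts8. The measured means of Uty were -8.73 in Ts8 and -5.80 in Ts15. Zfy1 (-1.60, adjusted p = 0.14), Zfy2 (0.07) and Sry (-0.01) were not called. A bound of this kind sets the mean of the bright line against, for each array of the dim line, the higher of the lowest signal that was well above background and the probe's own signal.

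On the X chromosome, whose mean shift differed by 0.025, Eif2s3x, the X copy of Eif2s3y, was at 1.18 and 1.07 in Ts8, against 2.58 and 2.48 in Ts15 (difference -1.40 ± 0.15, adjusted p = 0.0024, and -0.58 with the mean of all its probes). Both Ts8 values also lay below the WT values of 2.18 and 2.30. The 2 homologues are alike in sequence, and sharing of signal between their probes was not tested. Kdm6a, the X homologue of Uty, was 1.56-fold higher and Rlim, a ubiquitin ligase that activates Xist, 1.56-fold lower. Tsix, the antisense transcript that represses Xist, was at -3.50 and -2.83 in Ts8, against -5.23 and -5.30 in Ts15 (4.31-fold, adjusted p = 0.0041). Xist, the RNA that coats the inactive X, was at 0.64 and 0.96 in Ts8, against 0.28 and -0.16 in Ts15 (difference 0.74, adjusted p = 0.11). The 2 transcripts overlap on opposite strands.

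Outside chromosomes 8 and 15 and apart from Y-linked genes, the named genes furthest down in Ts8 were of several kinds. Gkn2, a gastric secreted protein, was at -6.18 and -5.34 in Ts8, against -2.75 and -1.59 in Ts15 (12.0-fold lower), and WT lay at the Ts15 side with a mean of -1.20. Wnt8a, a Wnt ligand of the primitive streak, was at -3.31 and -4.15 in Ts8, against -0.64 and -0.42 in Ts15 (9.21-fold lower, adjusted p = 0.0014). WT lay between for Wnt8a, at -1.44. Thbd, the anticoagulant receptor thrombomodulin, was 8.57-fold lower, S100g, a calcium-binding protein, 7.58-fold, and Nt5e, the ectoenzyme that makes adenosine, 7.31-fold. Adora1, an adenosine receptor, was at -4.09 and -4.22 in Ts8, against -1.16 and -1.51 in Ts15, 7.06-fold lower. Tnfrsf25, a death receptor, was 5.57-fold lower and Grm6, a glutamate receptor, 5.68-fold (adjusted p = 0.048, and 0.056 after quantile normalization). Grm6 was well above background on 1 of the 2 Ts8 arrays, and its difference ran between -3.48 and -1.48 over the alternatives. Thbd, Nt5e and Adora1 lay above WT in Ts15, by 1.16, 1.70 and 1.61, and below WT in Ts8, by -1.94, -1.17 and -1.20.

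The 10 named genes furthest up in Ts8 outside chromosomes 8 and 15 had levels below 0 in both lines. All were well above background on both arrays of each line. Muc1, a membrane mucin, was at -3.12 and -1.98 in Ts8, against -4.76 and -4.73 in Ts15 (4.59-fold, adjusted p = 0.0071). Mmp27, a matrix metalloproteinase, was 4.40-fold higher, Acoxl, an acyl-CoA oxidase relative, 4.27-fold, Spz1, a testis transcription factor, 3.87-fold, and Cracd 3.76-fold (adjusted p = 0.061 after quantile normalization). Olfactory receptor genes filled 4 of the 10 places, Olfr985, Olfr574, Olfr466 and Olfr71, at 3.57-fold to 4.02-fold. Olfr71 was at -2.32 and -2.33 in Ts8, against -4.09 and -4.23 in Ts15, with WT at -2.43. For Mmp27, Olfr574 and Olfr71, Ts8 differed from WT, which shared its slide, by 0.05, 0.01 and 0.10, and Ts15 differed from WT by -2.09, -1.97 and -1.73. Among genes not well above background on either Ts15 array, Serpina7, a thyroid hormone carrier, was at least 3.85-fold higher in Ts8, Cyp2c68 at least 3.53-fold, Olfr524 at least 3.48-fold and Ttpa, the vitamin E carrier, at least 3.45-fold. In the other direction Btla, an immune receptor, was at least 3.93-fold lower, Nlrp9b at least 3.76-fold and Serpind1 at least 3.67-fold. These bounds are for the main processing and did not hold under every alternative. The smallest log2 differences over the alternatives were 1.37 for Serpina7, 1.05 for Cyp2c68, 1.04 for Olfr524 and 1.22 for Ttpa. For Btla, Nlrp9b and Serpind1 they were -1.11, -1.18 and -1.14. Cfc1, a co-receptor of Nodal signals, had a bound of 6.22-fold lower but was not called (adjusted p = 0.075).

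Genes of primitive and visceral endoderm had the largest share of calls among the lists outside chromosomes 8 and 15, and all of these calls were lower in Ts8. Of 25 tested members, 19 were called lower and none higher, and 16 of the 22 members outside chromosomes 8 and 15 were called lower, beside 5.15% of all such genes. The median of those 22 was -1.10, against 0.02 for all genes outside chromosomes 8 and 15. The median stood at -0.20 against WT in Ts8 and at 0.89 above WT in Ts15. With 1 array fewer there were 12 to 16 lower calls, the 12 without Ts15 replicate 1. The list was drawn up with earlier results of these arrays known, so the count is no independent evidence of the direction.

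Several transcription factors were among the endoderm genes called lower. Sox17 was at -2.20 and -2.13 in Ts8, against 0.36 and -0.19 in Ts15 (difference -2.25 ± 0.27, adjusted p = 0.0032, 4.75-fold). Foxa2 was at -2.12 and -1.84 in Ts8, against 0.50 and -0.09 in Ts15 (difference -2.19 ± 0.31, adjusted p = 0.0056). Sox7 was at -1.60 and -1.74 in Ts8, against 0.52 and -0.12 in Ts15, a 3.66-fold difference. In all 3, WT lay with Ts8, at means of -2.40, -1.74 and -1.32. Gata6, which starts the primitive endoderm programme, was at 0.39 and 0.30 in Ts8, against 2.32 and 1.79 in Ts15 (3.27-fold). Gata4, its partner, was at 0.22 and 0.08 in Ts8, against 1.78 and 1.31 in Ts15 (2.63-fold). Both GATA factors stood near WT in Ts8 (WT means 0.54 and 0.17), and both Ts15 arrays stood above both WT arrays.

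Among receptors and secreted proteins of the endoderm list some were called lower and others were not called. Pth1r, the receptor of parathyroid hormone and its related peptide, was at -0.91 and -0.91 in Ts8, against 1.64 and 1.14 in Ts15 (4.92-fold, adjusted p = 0.0016). Cubn and Amn encode the subunits of the receptor by which visceral endoderm takes up nutrients. Cubn was at 0.69 and 0.29 in Ts8, against 2.18 and 1.66 in Ts15, and Amn at -1.86 and -1.71 in Ts8, against 0.06 and -0.68 in Ts15. The subunits were 2.70-fold and 2.78-fold lower. Pdgfra, a growth factor receptor that marks early primitive endoderm, was 2.10-fold lower, and Dab2, an endocytic adaptor on chromosome 15, 1.82-fold. Ttr, a thyroid hormone carrier, was not well above background on either Ts8 array and was at -4.74 and -4.55 in Ts15. It was at least 3.65-fold lower in Ts8. That bound is for the main processing, and over the alternatives the log2 difference ran between -3.41 and -1.15. Lrp2, the partner of cubilin, was at 0.49 and 0.88 in Ts8, against 0.73 and 0.74 in Ts15, and was not called. Hhex, Hnf4a, Afp, Ihh and Apoa1 were not called either, with differences of -0.60 to 0.33.

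Basement membrane genes, which parietal and primitive endoderm express strongly, were lower too. Lama1 was at 2.06 and 2.25 in Ts8, against 3.47 and 3.14 in Ts15 (2.23-fold), Lamb1 was 1.84-fold lower and Sparc 1.61-fold, beside Col4a1 and Col4a2 above. Feeder fibroblasts make some of the same proteins. Of 32 tested fibroblast markers 2 were called lower, Timp2 (-0.61) and Acta2 (-0.59), and none higher. Of all genes tested 5.57% were called lower and 11.6% higher. Among the fibroblast markers, 29 of the 31 outside chromosomes 8 and 15 had a difference below 0, with a median of -0.43. At an unadjusted p under 0.05, 18 of the 32 were lower and none higher. Neither call held after quantile normalization. The summed signal of the list, as a multiple of the 75th percentile, was 133 and 119 in Ts8, against 155 and 165 in Ts15, and 140 and 139 in WT. No endoderm gene is in the fibroblast list. Of the defining markers Col1a1, Col1a2, Col3a1, Thy1, Postn and Dcn, Postn alone was not well above background on every array of the lines, missing on Ts15 replicate 1, and the 6 summed to 25.4 and 21.6 in Ts8, against 30.3 and 34.3 in Ts15. The part of feeder RNA in the matrix genes was not tested.

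**Figure D4:**
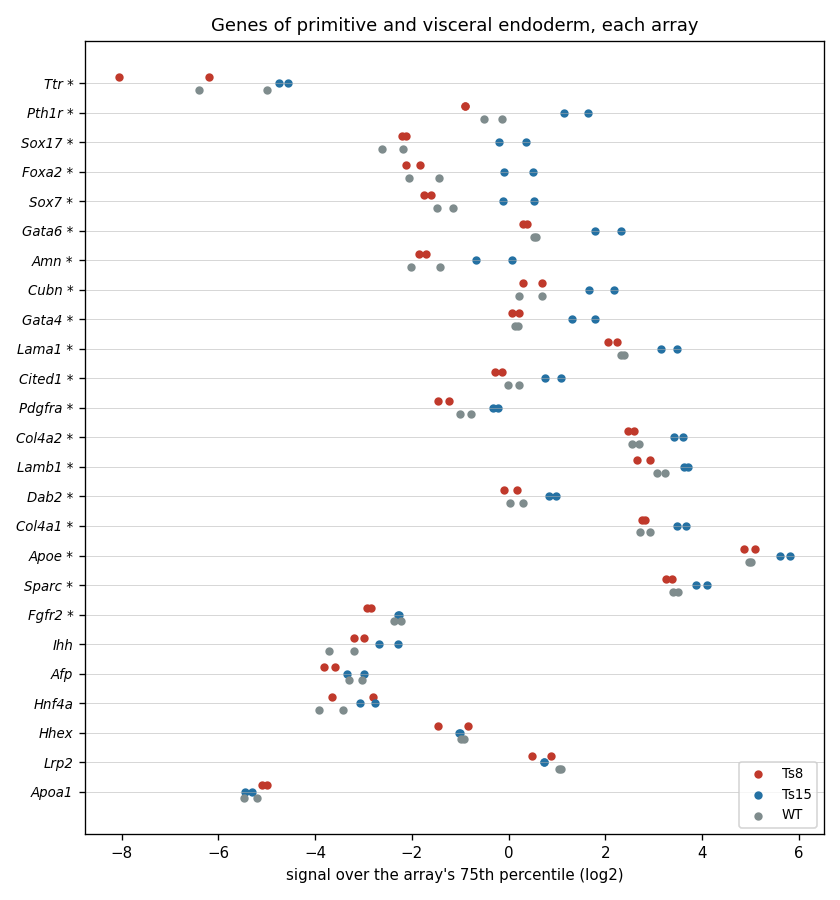
Signal of the 25 tested genes of primitive and visceral endoderm over the 75th percentile of each array (log2), with 2 arrays per line (Ts8 above Ts15 above WT), ordered by difference; an asterisk marks a called gene. The Ts8 points of Sox17, Foxa2, Gata6 and Gata4 lie with the WT points, and the Ts15 points lie to their right.

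Genes of trophectoderm and placenta had the next largest share of calls. Of 20 tested members 12 were called lower and none higher, 10 of them among the 16 outside chromosomes 8 and 15. Of all genes outside these chromosomes 5.15% were called lower. The median of the 16 was -0.92. The same median was -0.55 against WT in Ts8 and 0.44 in Ts15. Hand1, a transcription factor of trophoblast and of lateral mesoderm, was at -4.70 and -5.07 in Ts8, against -2.34 and -2.79 in Ts15 (5.01-fold lower, adjusted p = 0.0030). With the mean of all its probes Hand1 differed by -0.77. Cdx2, which specifies trophectoderm, was at -4.17 and -4.98 in Ts8, against -2.58 and -2.53 in Ts15 (4.06-fold lower, adjusted p = 0.0051). Tfap2c was 1.95-fold lower, Tead4 2.18-fold, and the connexin gene Gjb5 3.66-fold. Gjb5 was well above background on 1 of the 2 Ts8 arrays, its difference ran between -2.63 and -0.56 over the alternatives, and it was called in 8 of 14 of them. Krt8 and Krt18, on chromosome 15, were among the 12. The count of 12 was 6 without Ts15 replicate 1 or Ts8 replicate 2.

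Primitive streak genes and targets of Wnt signalling overlapped with these groups. Of 17 tested genes of mesoderm and primitive streak, Hand1, Cdx2, Evx1, T and Snai1 were called lower and Tbx6 higher (0.43, adjusted p = 0.22 after quantile normalization). The 5 lower calls were 3 without either Ts15 array. T, or brachyury, was at -3.11 and -4.04 in Ts8, against -2.24 and -2.31 in Ts15 (2.47-fold lower). Evx1 was at -4.09 and -4.57 in Ts8, against -2.49 and -2.84 in Ts15 (3.18-fold lower). Of 21 tested Wnt targets, 6 were called lower and none higher: Wnt8a, Sox17, Dkk1, Cdx2, Sp5 and T. The median was -0.44 over the 19 outside chromosomes 8 and 15. Beside these lists, 5.57% of all genes tested were called lower and 11.6% higher. The 6 calls were 5 to 7 with 1 array fewer. Dkk1, a secreted Wnt inhibitor, was at -3.04 and -3.71 in Ts8, against -0.79 and -1.47 in Ts15 (4.74-fold lower, adjusted p = 0.0042; WT -3.21 and -3.11). Sp5, a transcription factor downstream of Wnt, was at -2.45 and -2.51 in Ts8, against -0.97 and -0.93 in Ts15 (2.88-fold lower, adjusted p = 0.0053; WT -1.10 and -1.79). Dkk1 stood with WT in Ts8 and above it in Ts15, and Sp5 stood near WT in Ts15 and below it in Ts8. Axin2, a direct target in most tissues, differed by -0.35 (adjusted p = 0.13), and Lef1, Tcf7, Ccnd1 and Notum were not called.

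The promoters of Dkk1 and Sp5 are shown because both genes are Wnt targets called lower in Ts8 than in Ts15. The sequences are those of RefSeq on GRCm38.p6, 250 bases before to 50 after the gene start, and capitals mark CTTTGA, the core bound by TCF and LEF factors, on either strand. Dkk1 is at chr19:30549447-30549746 on the minus strand and Sp5 at chr2:70474673-70474972 on the plus strand, each with 2 matches.
Dkk1: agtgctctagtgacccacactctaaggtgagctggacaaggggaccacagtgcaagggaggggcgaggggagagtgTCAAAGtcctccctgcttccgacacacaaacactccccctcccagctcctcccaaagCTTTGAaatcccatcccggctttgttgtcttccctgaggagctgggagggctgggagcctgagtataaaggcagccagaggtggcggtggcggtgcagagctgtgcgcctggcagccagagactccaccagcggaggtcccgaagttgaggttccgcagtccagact
Sp5: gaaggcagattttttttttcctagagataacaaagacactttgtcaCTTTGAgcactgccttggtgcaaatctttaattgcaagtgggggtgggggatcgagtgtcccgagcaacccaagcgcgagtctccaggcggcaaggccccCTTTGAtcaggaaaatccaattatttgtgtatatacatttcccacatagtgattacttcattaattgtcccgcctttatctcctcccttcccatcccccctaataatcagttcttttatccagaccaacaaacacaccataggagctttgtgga
A match was found for 3 of the 4 called Wnt targets with a promoter in the table, T being the other, against 18.2% of all 27025 genes. The motif was chosen after the values were seen. AGATAA, a core of GATA factor sites, was in 2 of 13 promoters of the endoderm genes called lower (15.4%), Foxa2 and Dab2, against 12.7% of all genes. Foxa2 has several RefSeq starts, and it was counted for a match in the window chr2:148045415-148045714 and not at its other starts. A match says only that the letters are present.

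Most naive pluripotency genes were not called. Of 25 tested genes, Gbx2, Tfcp2l1 and Tbx3 were called lower and none higher, beside 5.57% lower and 11.6% higher of all genes tested. The median was -0.13. After quantile normalization the median of the 23 outside chromosomes 8 and 15 was 0.02, and 1 gene was called lower. Tfcp2l1, a transcription factor that acts downstream of LIF, was at 1.68 and 1.64 in Ts8, against 2.35 and 2.12 in Ts15 (difference -0.58 ± 0.11, adjusted p = 0.016). Gbx2 was at 1.87 and 1.01 in Ts8, against 2.63 and 2.41 in Ts15 (adjusted p = 0.040, and 0.058 after quantile normalization), and Tbx3 differed by -0.55 (0.052 after quantile normalization). None of the 3 was called without Ts15 replicate 1 or Ts8 replicate 2. Both Ts8 arrays were below WT for the 3 genes, and Ts15 differed from WT by 0.07, -0.07 and 0.01 for Gbx2, Tfcp2l1 and Tbx3. Among 20 tested genes of the LIF and Stat3 pathway, 4 were called lower and none higher, beside the same shares of all genes. The 4 were Gbx2, Tfcp2l1, Ier3 (-0.54) and the kinase gene Pim1 (-0.52). Without Ts15 replicate 1 or Ts8 replicate 2 none of these 4 was called, and without Ts15 replicate 2 there was 1 call.

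Among 23 tested feedback genes of FGF and ERK signalling, 5 were called lower, Myc, Fgfr2, Spry1, Ier3 and Etv5 (adjusted p = 0.058 for Etv5 after quantile normalization), of which 1 call was left without either Ts15 array or Ts8 replicate 2. Spry1, an inhibitor of receptor tyrosine kinases, was at 0.99 and 0.57 in Ts8, against 1.34 and 1.31 in Ts15 (1.46-fold lower). Of 22 tested genes of the primed epiblast 6 were called lower and none higher. Beside this list and the feedback genes, 5.57% of all genes tested were called lower and 11.6% higher. Fgf5, which marks cells leaving the naive state, was at -3.15 and -4.93 in Ts8, against -1.90 and -1.83 in Ts15 (4.52-fold lower, adjusted p = 0.049, and 0.054 after quantile normalization). Pim2, a kinase gene on the X chromosome, was at 0.04 and 0.13 in Ts8, against 1.00 and 1.04 in Ts15 (1.91-fold lower, adjusted p = 0.0069). Grhl2 and Krt18 of chromosome 15 were also in the group. After quantile normalization 3 genes of this list were called lower, and leaving out Ts15 replicate 1 or Ts8 replicate 2 gave 2, and leaving out Ts15 replicate 2 gave 3.

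Interferon and antigen presentation genes were lower in Ts8. Of 31 tested members 11 were called lower and 2 higher. Of the 25 outside chromosomes 8 and 15, 9 were called lower and 0 higher, beside 5.15% lower and 10.9% higher of all such genes, and the median was -0.55. That median was -0.24 against WT in Ts8 and 0.25 in Ts15. Oas1a, a sensor of double-stranded RNA, was at 1.65 and 0.88 in Ts8, against 2.36 and 2.45 in Ts15 (2.20-fold lower, adjusted p = 0.018). Oasl2 was 2.14-fold lower, and Psmb8, a subunit of the immunoproteasome, was at -2.0 and -2.86 in Ts8, against -1.32 and -1.20 in Ts15 (2.25-fold lower). Bst2 and Ifitm1, proteins that restrict viruses, have their probes on chromosome 8 in the files, and were 2.04-fold and 1.88-fold lower. Irf8 and Nlrc5, regulators of interferon and MHC class I genes on chromosome 8, were the 2 called higher, by 1.07 and 1.06 (adjusted p = 0.053 for Nlrc5 after quantile normalization). Irf8 was at -1.70 and -1.42 in Ts8, against -2.67 and -2.58 in Ts15. The calls of this group rested on few arrays: without Ts15 replicate 2 there were 0 lower calls, without Ts15 replicate 1 or Ts8 replicate 2 there were 2, and without Ts8 replicate 1 there were 9.

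Neuroectoderm genes went the other way. Of 17 tested members 4 were called higher and Gbx2 lower, with a median of 0.39 over the 15 outside chromosomes 8 and 15, beside 10.9% of all such genes called higher. Nes, an intermediate filament of neural precursors, was at -1.01 and -0.76 in Ts8, against -1.62 and -1.58 in Ts15 (1.64-fold, adjusted p = 0.032). Neurod1, a neuronal transcription factor, was at -0.97 and -0.75 in Ts8, against -1.73 and -1.56 in Ts15 (1.73-fold, adjusted p = 0.015). Dcx, a microtubule protein of migrating neurons, was not well above background on either Ts15 array and was at least 3.11-fold higher in Ts8. That bound is for the main processing, and over the alternatives the log2 difference ran between 0.91 and 2.34. Hes5, a Notch target, was 1.52-fold higher (adjusted p = 0.057 after quantile normalization). The 4 higher calls were 1 without Ts15 replicate 1, Ts15 replicate 2 or Ts8 replicate 2.

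Genes of the 2-cell-like state, which a few cells of an ES culture switch on, gave 3 higher and no lower calls among 23, and 5 higher calls after quantile normalization. The share called higher was near the 10.9% of all genes outside chromosomes 8 and 15. The median was 0.33, and 0.41 after quantile normalization, against 0.02 and 0.00 for all genes outside chromosomes 8 and 15. Of the 23 members, 19 had a difference above 0. At an unadjusted p under 0.05 in limma, 12 were higher and 1 lower. Zscan4a was at 2.73 and 2.73 in Ts8, against 2.00 and 2.08 in Ts15, and Zscan4b at 2.99 and 2.99 in Ts8, against 2.52 and 2.44 in Ts15 (adjusted p = 0.043 and 0.046). The Zscan4 genes are near-identical copies, so these 2 probes are not independent. Zbed6 differed by 0.99 (adjusted p = 0.023, and 0.077 after quantile normalization). None of the 3 was called without either Ts15 array or without Ts8 replicate 2.

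Of 32 tested genes of germ cells and the piRNA pathway, which silences transposons, 5 were called higher and 3 lower. Outside chromosomes 8 and 15 these were 4 and 3 of 28, beside 10.9% higher and 5.15% lower of all such genes. Tdrd1, a tudor protein that binds PIWI proteins, was at -4.37 and -4.20 in Ts8, against -5.10 and -5.03 in Ts15 (1.72-fold, adjusted p = 0.0078). Ddx4, the germ cell RNA helicase, was at -0.75 and -0.37 in Ts8, against -1.25 and -1.31 in Ts15 (1.65-fold, adjusted p = 0.018). Asz1, which acts in piRNA production, was 2.16-fold higher and Tex15, on chromosome 8, 1.84-fold (adjusted p = 0.060 after quantile normalization). Piwil4 was 1.33-fold higher (0.13 after quantile normalization). Tdrd12 was at -0.31 and -0.52 in Ts8, against 0.51 and 0.42 in Ts15 (1.84-fold lower), and Tuba3a and Tuba3b, near-identical tubulin genes, were 1.65-fold and 1.63-fold lower (adjusted p = 0.053 for Tuba3a after quantile normalization). The 5 higher calls were 2 without Ts15 replicate 1 and 1 without Ts15 replicate 2 or Ts8 replicate 2, and in these fits there were 0 lower calls. Of 31 tested meiotic chromosome genes, Terb1, Hsf2bp and Msh4 were called higher and Syce3, Dmc1 and Rec114 lower. Terb1 is on chromosome 8, and Syce3 and Dmc1 are on chromosome 15. Beside this list, 11.6% of all genes tested were called higher and 5.57% lower. After quantile normalization the calls of Terb1, Hsf2bp (adjusted p = 0.091), Syce3 (0.058) and Dmc1 (0.057) ended. None of the 3 lower calls was made in any fit that left out an array.

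Promoters of germ cell genes often hold CACGTG, the E-box read by MYC, MAX and MGA. Mga was higher in Ts8 by 0.74 ± 0.18 (adjusted p = 0.032), and by 0.50 to 0.97 over the alternatives. A link between Mga and the genes below was not tested. Of 13 called germ cell and meiotic genes with a promoter in the RefSeq table, 3 held the E-box (23.1%), against 8.09% of all genes. These were Ddx4 and Tdrd1, called higher, and Rec114, called lower. Of the 7 called higher with a promoter, 2 held it (28.6%). GCGGGAA, an E2F motif, was in 5 of the 13 (38.5%) against 5.29% of all genes, among them Tuba3a and Tuba3b, which are copies of each other. The 2 higher genes with the E-box are shown, with it in capitals. Tdrd1 is at chr19:56825959-56826258 on the plus strand and Ddx4 at chr13:112652261-112652560 on the minus strand (GRCm38.p6).
Tdrd1: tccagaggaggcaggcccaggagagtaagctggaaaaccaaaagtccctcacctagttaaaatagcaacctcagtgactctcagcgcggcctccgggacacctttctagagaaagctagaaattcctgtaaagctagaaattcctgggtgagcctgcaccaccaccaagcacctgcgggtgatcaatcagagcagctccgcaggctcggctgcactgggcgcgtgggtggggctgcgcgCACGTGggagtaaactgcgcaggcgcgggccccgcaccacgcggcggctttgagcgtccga
Ddx4: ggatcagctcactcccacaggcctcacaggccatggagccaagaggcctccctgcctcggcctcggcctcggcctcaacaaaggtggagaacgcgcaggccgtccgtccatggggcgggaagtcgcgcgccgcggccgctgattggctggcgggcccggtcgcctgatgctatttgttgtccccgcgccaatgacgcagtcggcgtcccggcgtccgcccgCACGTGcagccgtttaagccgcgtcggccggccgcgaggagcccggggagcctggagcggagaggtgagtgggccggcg
The match begins at position -11 from the gene start of the window shown for Tdrd1 and at -29 in Ddx4. Tdrd1 has other RefSeq starts. The same E-box is at -77 in the window chr19:56826025-56826324, and the window chr19:56830462-56830761 holds none. The matches are a description of these windows.

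Imprinted genes, read from 1 parental copy, gave 3 higher and 5 lower calls among 36 tested. Outside chromosomes 8 and 15 these were 2 and 5 of 31, beside 10.9% higher and 5.15% lower of all such genes. Grb10, a growth-restraining adaptor, was at -1.31 and -1.10 in Ts8, against -2.96 and -3.05 in Ts15 (3.48-fold, adjusted p = 0.0021). WT lay with Ts8, at -1.37 and -1.34, so that Ts15 stood 1.65 below WT. Peg10, a placental gene derived from a retrotransposon, was at -0.47 and -0.73 in Ts8, against 0.82 and 0.67 in Ts15 (2.54-fold lower, adjusted p = 0.0042). H19, a noncoding RNA, was at 1.75 and 1.57 in Ts8, against 3.08 and 2.85 in Ts15 (2.48-fold lower, adjusted p = 0.0039). For Peg10 and H19 the WT values lay between the lines. Ascl2 was 2.00-fold lower (adjusted p = 0.053 after quantile normalization, and called in none of the 4 fits without 1 array), Nnat 1.85-fold, Mest 1.34-fold (adjusted p = 0.066 after quantile normalization), Ppp1r9a 1.84-fold higher (0.053), and Gab1, on chromosome 8, 1.79-fold higher. Without Ts15 replicate 1, Ts15 replicate 2 or Ts8 replicate 2 there were 1 higher and 2 lower calls, and without Ts8 replicate 1 there were 3 and 3.

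Most lists of stress and metabolic genes had few calls, beside 11.6% higher and 5.57% lower of all genes tested. Lower calls were above that share for the amino acid response, chaperones, glycolysis and hypoxia, and adhesion. In the other lists of this paragraph they were near or below it. Among 24 tested genes of the amino acid response, Chac1, a glutathione-degrading enzyme induced through Atf4, was at -0.40 and -0.66 in Ts8, against 1.21 and 0.87 in Ts15 (2.96-fold lower, adjusted p = 0.0021). Phgdh, the first enzyme of serine synthesis, was 1.5-fold lower, and Atf4 on chromosome 15 was also called lower, with none higher. Of 23 chaperone genes 4 were called lower, Cryab, Hspa1a, Bag3 and Hsf1, the last on chromosome 15, and of 24 genes of the unfolded protein response Dnajb9 was called higher (0.59). The calls of Phgdh (adjusted p = 0.073), Cryab (0.067) and Bag3 (0.10) ended after quantile normalization. Glycolysis and hypoxia genes had 4 lower calls among 30, P4ha2 (-0.87), Ndrg1 and Gapdh (-0.60, and -0.21 after quantile normalization) among them, and 1 higher, Egln1 of chromosome 8 (adjusted p = 0.11 after quantile normalization). Among p53 targets 1 of 27 was called, Gadd45b (-0.43), and among proteasome genes 1 of 31, Psmb3 (-0.38). Of 30 respiratory chain genes none was called in limma, 3 had an unadjusted p under 0.05, and the differences were -0.38 to 0.10, while of 31 DNA replication genes Orc6 of chromosome 8 was called (0.43). Sc5d (-0.64) of 29 sterol genes and Dnmt3b (-0.56) of 16 DNA methylation genes were called, and Kif11 (0.66) and Cenpn (0.62) of 28 mitosis genes. The calls of Gadd45b (adjusted p = 0.055), Psmb3 (0.077), Sc5d (0.055) and Dnmt3b (0.084) ended after quantile normalization, and none of these 4 was called in a fit without 1 array. Of 30 genes of adhesion and junctions 6 were called lower, Cldn3 (-1.05), Itga3 (-0.70), Krt8, Krt18 and Gjb5 among them. The 3 called higher were Cdh1, Cdh3 and Nectin4, the last at least 2.08-fold. Over the alternatives the log2 difference of Nectin4 ran between 0.62 and 2.32. Without either Ts15 array or Ts8 replicate 2 the 6 lower calls were 2 to 3, those of chaperones 0 and those of glycolysis and hypoxia 1 to 2.

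**Figure D5:**
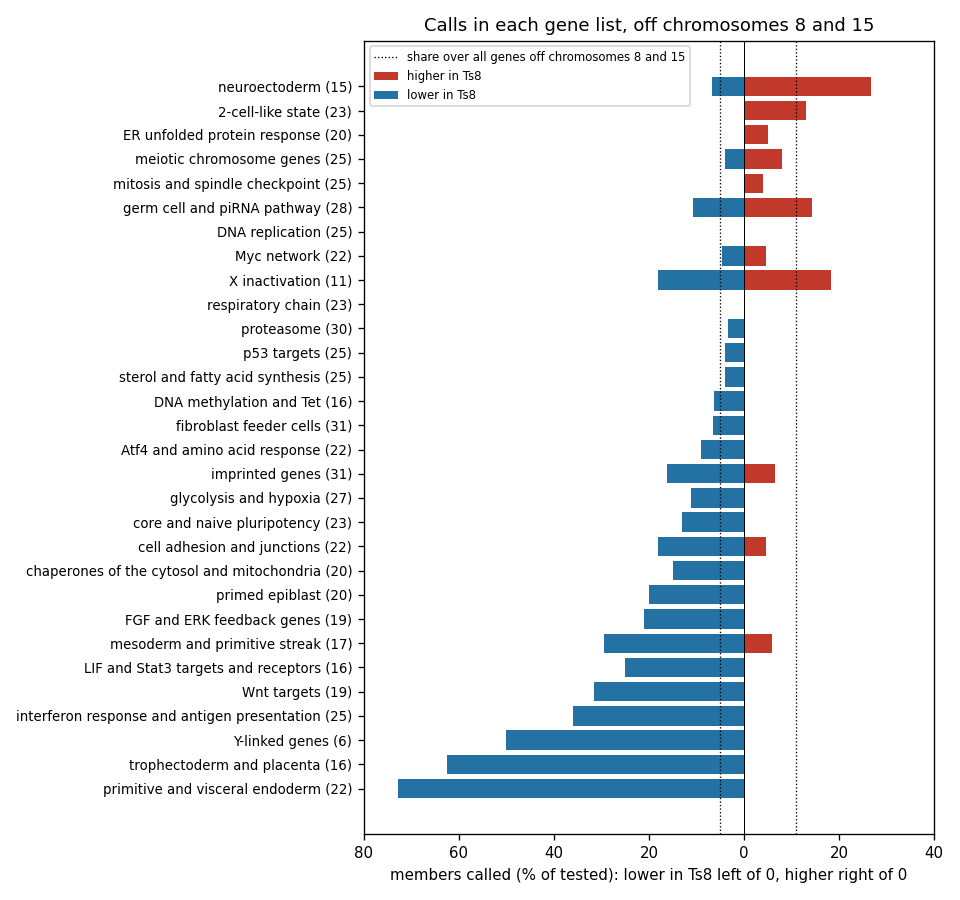
Members of each gene list called lower (left of 0) or higher (right of 0) in Ts8, as a percentage of the members tested outside chromosomes 8 and 15 (number in brackets), with dotted lines at the 5.15% lower and 10.9% higher of all such genes. The endoderm list has 16 of 22 members called lower and the trophectoderm list 10 of 16, while the respiratory chain and DNA replication lists have none.

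Of 121 called genes that were named by rule, 48 were called under every alternative that gave a value. Among these were Sox17, Foxa2, Pth1r, Wnt8a, Dkk1, Hand1, Cdx2, Evx1, Myc, Krt8, Grhl2, Cdh3, Tenm3, Grb10, H19, Peg10, Chac1, Ddx3y, Eif2s3y and Eif2s3x. The other 73 lost their call in at least 1 alternative, mostly where an array was left out, which leaves 1 array for that line. Tenm3 is counted also under its older name, Odz3, in the 121 and in the 48.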

How the data were processed

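Per the file headers, the authors deposited the intensity of each spot of 1-colour Agilent arrays, made with Feature Extraction 10.7.3.1 on mm9 probes, with spatial and multiplicative detrending on and background correction off. Per the labels' protocols, RNA was amplified and labelled with Cy3. The authors also deposited a series table of log2 values, whose columns share 1 SD but differ in median by group; what was done to centre them is not given in the sources used here, so it served as an alternative.

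Of 55681 probes, 43055 were kept: 176 with an outlier mark were dropped, as was any probe that no group showed well above background on its 2 arrays. Processed signals were scaled on the 75th percentile of each array and put on log2. The probe with the highest mean over the 10 arrays stood for its gene, and 20.4% of 1425 called genes with several probes had one of opposite sign. Symbols were updated by RefSeq accession for 26863 of 29060 probes with one. The file of Ts15 replicate 2 had been through a spreadsheet, which altered 49 gene names, and the names were taken from an intact file.

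limma 3.58.1 (R 4.3.3) fitted 1 mean per group over all 10 arrays, with the contrast Ts8 minus Ts15. Variances were moderated (residual degrees of freedom 5, prior 2.67) and p-values adjusted by Benjamini-Hochberg over 28188 genes; all tests were two-sided. A chromosome's shift was tested with an exact permutation test (scipy 1.17.1); tables and figures used matplotlib 3.10.9, numpy 2.4.6 and pandas 2.3.3 under Python 3.11.15. The fit was tested on simulated data. Alternatives were other background corrections, scalings, filters, probe summaries, covariates and left-out arrays. Cyclic loess was added after seeing that dim genes were higher in Ts8.

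The groups, the 32 gene lists (796 of 817 genes on the array) and the rule for named genes were chosen with earlier results of these data known. By that rule a named gene is no predicted, clone or lincRNA name, is called, is well above background on an array of each line and does not overlap between the lines. Outside chromosomes 8 and 15 the 10 highest and 10 lowest were named, on chromosome 8 the 6 highest and 3 lowest, on chromosome 15 the 6 lowest and 3 highest, the 4 highest and 4 lowest bounds among genes well above background on both arrays of one line and none of the other, and per list the up to 4 called members of largest difference, or the 1 largest where none was called. Other list members named in the text were chosen after their values were seen. Ddx3y, Eif2s3y, Uty, Xist, Myc, Lifr, Atf4, Klf2 and Cdh1 were named whatever their value.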

Additional observations from a re-analysis of the deposited data

How the results depend on the processing

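The shift of chromosome 8 kept its sign under all 15 alternatives, at 0.26 after quantile normalization, after cyclic loess and in the authors' table, 0.23 with normexp background correction and with no filter on dim probes, and 0.27 with only genes well above background on all 4 arrays. The shift of chromosome 15 kept its sign too, at -0.22 with normexp and -0.20 with no filter. With only the 4 arrays the calls fell to 1918 (1404 higher, 514 lower, 194 higher on chromosome 8 and 70 lower on chromosome 15), where fewer arrays set the variance. Leaving out 1 array gave 1417 to 4595 calls, 979 to 2891 of them higher and 376 to 1704 lower, 133 to 312 higher on chromosome 8 and 58 to 198 lower on chromosome 15; the lone array is then assumed to vary like the other groups. Higher calls numbered 2045 after quantile normalization, 2057 in the authors' table and 1941 after cyclic loess, lower calls 933 with no filter, and calls of at least 2-fold 1458; why was not tested. No named gene that was called reversed under any alternative. Of the 121 called named genes 98 kept their call after quantile normalization, 99 after cyclic loess, and 55 without Ts8 replicate 2. The replicate numbers did not pair the arrays (correlation of the replicate differences of Ts8 and Ts15 0.043), and with the replicate block there were 5012 calls (3371 higher, 1641 lower), 427 higher on chromosome 8 and 231 lower on chromosome 15, and shifts of 0.25 and -0.25. The signal over background limits dim genes most: 539 of the higher calls were of genes not well above background on either Ts15 array, and 33 of the lower calls of genes not so on either Ts8 array.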
